A study of Mus musculus with 9 samples.

Results

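The 10 genes described here are signalling and growth genes of mouse liver: Gna14, Rgs16, Inhbb, Tgfbr3l, Erbb4, Slc2a4, Trp53inp1, Cdkn1a, Mdm1 and Clic5. They are 10 of the 45513 genes in the deposited count table, matched by Ensembl gene ID, and all 10 were among the 12102 genes with enough reads to test. They were chosen from these libraries, for a large rise on a high fat diet or a large fall with the ligand B-LGND2, so their values in those comparisons are given as a description and carry no test. Liver RNA came from C57BL/6 mice after 9 weeks, in 3 groups of 3: high fat diet with B-LGND2, high fat diet with vehicle, and normal diet with vehicle. B-LGND2 is known here only by its code name, and the series title presents it as a ligand of estrogen receptor beta. The sources used here state no dose, diet composition, age, sex or hour of collection.

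The set spans several routes by which a liver cell receives signals. G protein-coupled receptors work through alpha subunits such as the product of Gna14, and regulators of G protein signalling such as Rgs16 shorten that response by speeding GTP hydrolysis. Activins are dimeric ligands of the TGF-beta family that act through SMAD transcription factors, ErbB receptors are tyrosine kinases that bind epidermal growth factor and neuregulin ligands, and the p53 pathway answers cell stress by inducing genes that halt the cell cycle.

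The libraries held 5778978 to 10322972 counts. Levels are counts per 1e6 (CPM) on library sizes scaled by the trimmed mean of M-values (TMM), as mean ± SD of 3 libraries unless stated. The groups also differed in composition: gene models annotated as ribosomal RNA took 5.51% ± 1.04 of counts with B-LGND2, 1.20% ± 0.275 in high fat vehicle livers and 3.42% ± 0.299 on normal diet. Across protein-coding genes, Spearman's correlation of a library's deviation with transcript length was -0.238 to 0.132 with B-LGND2, 0.321 to 0.358 in high fat vehicle livers and -0.516 to 0.187 on normal diet. With GC content it was 0.521 in B-LGND2 replicate 1, and 0.082 and 0.047 in replicates 2 and 3. It was -0.099, -0.075 and -0.018 in the high fat vehicle libraries and -0.162, -0.262 and -0.203 on normal diet. The part of these differences in the values below was not tested beyond the alternatives given at the end. For transcript length and GC offsets these give numbers of called genes, and no value for each member. The hepatocyte list (9 markers, Alb and Ttr among them) summed to 78239 to 121861 CPM with B-LGND2, 79420 to 87492 CPM in high fat vehicle livers and 79935 to 89281 CPM on normal diet. In bulk liver, fewer cells of a type and less RNA per cell cannot be told apart.

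The 10 genes did not follow 1 pattern. All 10 had a higher mean in high fat vehicle livers than on normal diet, and for 8 every high fat vehicle library lay above every normal diet library, where 15.4% of all genes tested were higher without overlap. With B-LGND2, 8 had a lower mean than in high fat vehicle livers and 6 were lower without overlap, against 17.2% of all genes tested. Those counts restate how the genes were chosen. Slc2a4 and Cdkn1a had their highest mean with B-LGND2, and the other 8 in high fat vehicle livers. The lowest mean was on normal diet for Gna14, Rgs16, Inhbb, Slc2a4, Mdm1 and Cdkn1a, and with B-LGND2 for Trp53inp1, Erbb4, Clic5 and Tgfbr3l.

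**Figure D1:**
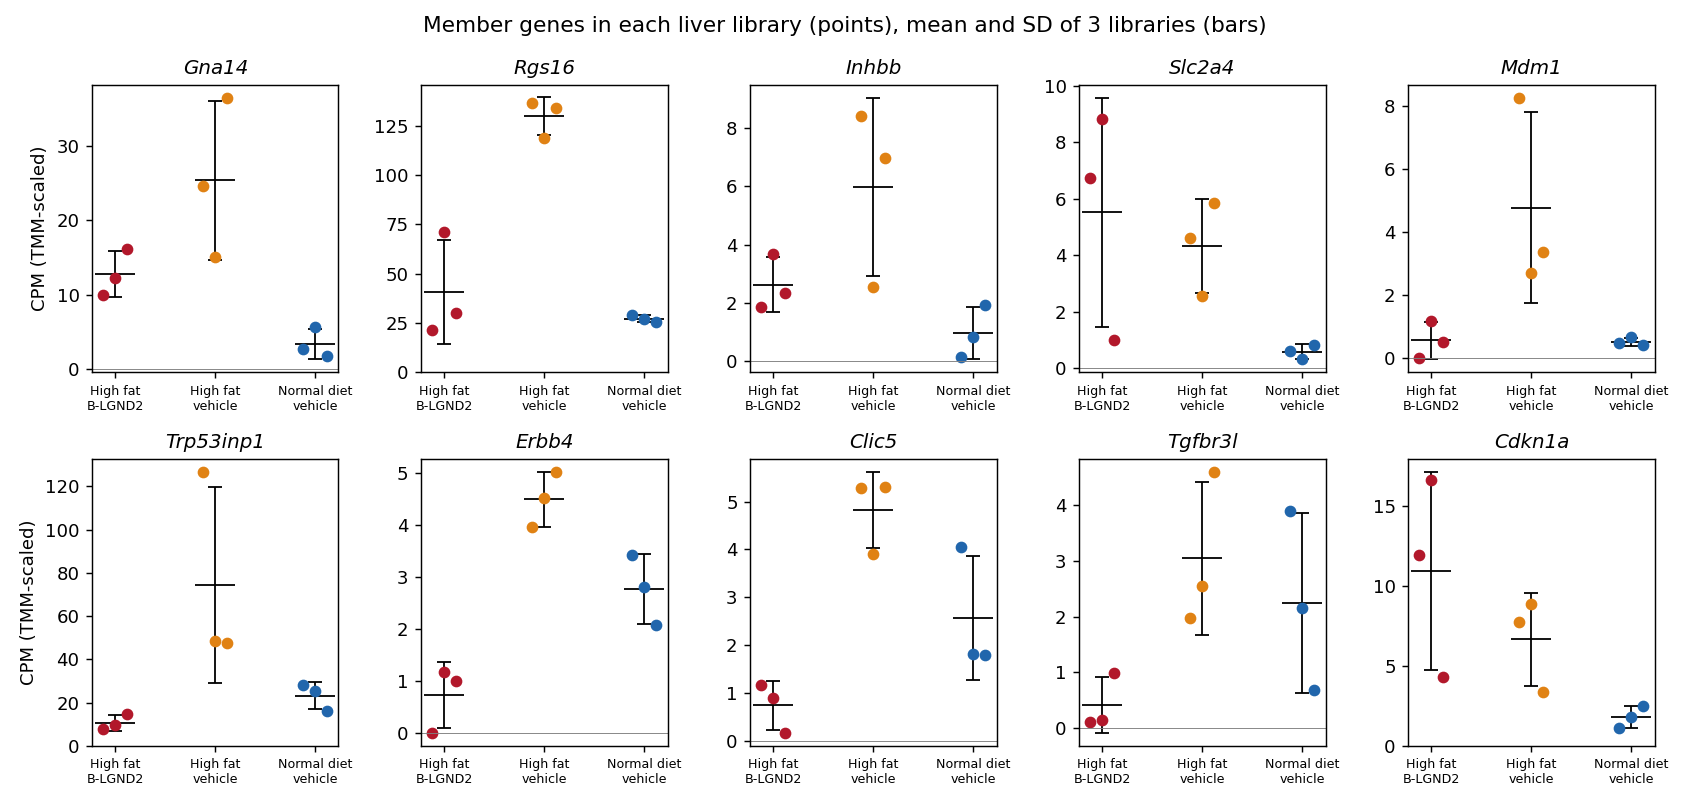
Level of each of the 10 genes in the 9 liver libraries, in CPM on a linear axis that differs by panel; points are libraries, and the horizontal bar and whiskers are the mean and SD of 3. Rgs16 stood at 119 to 137 CPM in high fat vehicle livers, above all other libraries, while Slc2a4 and Cdkn1a had their highest points with B-LGND2.

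Per kilobase of exon the genes covered a wide range of abundance. In high fat vehicle livers Rgs16 was the most abundant of the 10 at 55.5 ± 4.12 CPM per kilobase, followed by Trp53inp1 at 11.5 ± 7.02 and Gna14 at 7.38 ± 3.11 CPM per kilobase. Erbb4 was the lowest, at 0.364 ± 0.0429 CPM per kilobase. Over all 9 libraries 6 of the 10 genes had fewer than 250 counts, and the lowest sums were 113 counts each for Mdm1 and Tgfbr3l, so their values rest on few reads. The longest transcripts of the 10 genes had a median of 3241.5 bases, against 3426 bases over the 10828 protein-coding genes tested. Longer than that were 4 of the 10: Inhbb (4255 bases), Trp53inp1 (5432), Clic5 (5862) and Erbb4 (12037). All of these but Inhbb had their lowest mean with B-LGND2, as had Tgfbr3l (2546 bases).

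Gna14 encodes an alpha subunit of the Gq class, which couples receptors to phospholipase C (19:16435762-16610820 on GRCm38, plus strand). It had 86, 83 and 97 counts with B-LGND2, 149, 100 and 261 in high fat vehicle livers, and 17, 34 and 13 on normal diet. On the CPM scale these were 9.96, 12.2 and 16.2 with B-LGND2, 24.6, 15.0 and 36.4 in high fat vehicle livers, and 2.65, 5.62 and 1.80 on normal diet. Every high fat library, with or without the ligand, lay above every normal diet library, while the B-LGND2 and high fat vehicle libraries overlapped. The fitted log2 fold change was 2.93 (SE 0.41) for high fat vehicle over normal diet and -0.99 (SE 0.36) for B-LGND2 over high fat vehicle.

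Rgs16 encodes a GTPase-activating protein for Gi and Gq alpha subunits, and its liver RNA is known in mice to follow the daily feeding cycle (1:153740349-153745468, plus strand). Its level was 21.4, 70.9 and 29.8 CPM with B-LGND2, 137, 119 and 134 CPM in high fat vehicle livers, and 29.0, 26.8 and 25.3 CPM on normal diet. The high fat vehicle and normal diet groups were each tight, with coefficients of variation of 7.42% and 6.88%, whereas the B-LGND2 group varied by 65.0% and held 1 library, replicate 2, between the others. The log2 fold change was 2.26 (SE 0.34) for high fat vehicle over normal diet and -1.67 (SE 0.33) for B-LGND2 over high fat vehicle. Without B-LGND2 replicate 2 the second value was -2.32, and over the 9 fits with 1 library left out it ran from -2.32 to -1.33. The antisense gene model Gm28513 overlaps Rgs16 and had 132 counts over all libraries, against 3957 for Rgs16; the sources used here name no strand setting, so reads of the pair cannot be told apart.

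In neither of these G protein families was a further gene called. As background for the unadjusted counts here and below, many genes had an unadjusted p under 0.05 in edgeR's quasi-likelihood test. Of all 12102 genes tested these were 2712 for high fat vehicle over normal diet, 2874 for B-LGND2 over high fat vehicle and 2352 for B-LGND2 over normal diet. Of 12 other alpha subunit genes 8 were tested, and edgeR's quasi-likelihood test called none in any comparison (1 in each under an unadjusted p of 0.05, none by DESeq2 or limma-voom). Their median log2 fold change was -0.10 for high fat vehicle over normal diet, which turned to 0.068 without scaling, and 0.11 for B-LGND2 over high fat vehicle, which turned to -0.049. Of 17 other RGS genes only 5 were tested and edgeR, DESeq2 and limma-voom called none, with 0, 1 and 1 under an unadjusted p of 0.05 for high fat vehicle over normal diet, B-LGND2 over high fat vehicle and B-LGND2 over normal diet. All 5 stood above 0 for B-LGND2 over high fat vehicle, from 0.46 to 1.28 on the log2 scale, where Rgs16 itself stood at -1.67.

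Inhbb encodes the beta-B subunit of activin B and inhibin B (1:119415465-119422248, minus strand). It had 16, 25 and 14 counts with B-LGND2, 51, 17 and 50 in high fat vehicle livers, and 1, 5 and 14 on normal diet. That is 2.62 ± 0.946 CPM with B-LGND2, 5.98 ± 3.05 CPM in high fat vehicle livers and 0.973 ± 0.899 CPM on normal diet. The high fat vehicle libraries lay above all normal diet libraries on the CPM scale, the lowest of them at 2.56 CPM and the highest on normal diet at 1.94 CPM, and overlapped the B-LGND2 libraries. Its log2 fold change was 2.56 (SE 0.61) for high fat vehicle over normal diet and -1.19 (SE 0.54) for B-LGND2 over high fat vehicle. The first was 3.57 without normal diet replicate 3, and ran from 2.07 to 3.57 over the 9 fits with 1 library left out.

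Tgfbr3l encodes a membrane protein related to betaglycan, known from mouse pituitary as a co-receptor for inhibin B (8:4248214-4251423, plus strand). It had 1, 1 and 6 counts with B-LGND2, 12, 17 and 33 in high fat vehicle livers, and 25, 13 and 5 on normal diet. These counts gave 0.421 ± 0.501 CPM with B-LGND2, 3.05 ± 1.38 CPM in high fat vehicle livers and 2.25 ± 1.61 CPM on normal diet. All 3 B-LGND2 libraries lay below all high fat vehicle libraries, while the 2 vehicle groups overlapped. Fitted over all libraries, the log2 fold change was -2.93 (SE 0.77) for B-LGND2 over high fat vehicle and 0.46 (SE 0.62) for high fat vehicle over normal diet. Without B-LGND2 replicate 3 the first was -4.38, and over the 9 fits with 1 library left out it ran from -4.38 to -2.40. The protein-coding model Gm49320 overlaps Tgfbr3l on the same strand in the annotation used and is not a row of the count table, so its reads cannot be told apart from those of Tgfbr3l.

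Among 13 other ligands of the activin, inhibin and TGF-beta group 8 were tested. Tgfb1, the main pro-fibrotic and immune-regulating ligand of the family, was higher in B-LGND2 livers than on normal diet, at 9.85 ± 1.68 against 3.84 ± 0.788 CPM (n = 3 each; quasi-likelihood test of edgeR, adjusted p = 0.0292; log2 fold change 1.35, SE 0.31; higher in all 3 libraries). It was the only one of the 8 called there by edgeR, 12.5% against 2.93% of all genes tested, and 5 of the 8 were under an unadjusted p of 0.05. The call held in 4 of 9 leave-one-out fits and was lost without B-LGND2 replicate 1 or 3, high fat vehicle replicate 3 or normal diet replicate 2 or 3, with an adjusted p of up to 0.126. It was also lost with only the 2 groups compared. For high fat vehicle over normal diet and for B-LGND2 over high fat vehicle edgeR and limma-voom called none, DESeq2 called 1 in each, and 2 in each were under an unadjusted p of 0.05. Of 18 tested receptors, inhibitors and SMADs edgeR and limma-voom called none in any comparison, with 2, 2 and 4 under an unadjusted p of 0.05 for high fat vehicle over normal diet, B-LGND2 over high fat vehicle and B-LGND2 over normal diet, and 1 in each by DESeq2.

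Erbb4 encodes a receptor tyrosine kinase for neuregulins (1:68032186-69108059, minus strand), and was scarce in every library. It had 0, 8 and 6 counts with B-LGND2, 24, 30 and 36 in high fat vehicle livers, and 22, 17 and 15 on normal diet. Its mean was 0.725 ± 0.635 CPM with B-LGND2, 4.50 ± 0.530 CPM in high fat vehicle livers and 2.77 ± 0.679 CPM on normal diet. The 3 groups did not overlap one another: the high fat vehicle libraries were highest and the B-LGND2 libraries lowest. The log2 fold change was 0.70 (SE 0.54) for high fat vehicle over normal diet and -2.69 (SE 0.63) for B-LGND2 over high fat vehicle, and the second was -3.30 without B-LGND2 replicate 2.

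Of 18 other ErbB receptor, ligand and inhibitor genes 9 were tested. Erbb3, encoding a partner receptor that also binds neuregulins, fell with B-LGND2, to 62.8 ± 3.55 CPM against 126 ± 22 CPM in high fat vehicle livers (n = 3 each; edgeR adjusted p = 0.0245; log2 fold change -1.01, SE 0.24; lower in all 3 libraries). Errfi1, encoding a feedback inhibitor of ErbB kinases, rose in high fat vehicle livers, to 1871 ± 121 CPM against 944 ± 188 CPM on normal diet (n = 3 each; edgeR adjusted p = 0.0318; log2 fold change 0.99, SE 0.23; higher in all 3 libraries). Each was the only gene of the 9 called in its comparison, a share of 11.1%, against 5.63% of all genes tested for B-LGND2 over high fat vehicle and 2.99% for high fat vehicle over normal diet. The Erbb3 call was lost without any single B-LGND2 library or high fat vehicle replicate 1 or 2 (adjusted p up to 0.114), and the Errfi1 call without any single high fat vehicle library or normal diet replicate 2 or 3 (adjusted p up to 0.131).

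Slc2a4 encodes GLUT4, the insulin-responsive glucose transporter best known from muscle and fat (11:69942539-69948188, minus strand). It had 58, 60 and 6 counts with B-LGND2, 28, 17 and 42 in high fat vehicle livers, and 4, 2 and 6 on normal diet. On the CPM scale these were 6.72, 8.83 and 0.999 with B-LGND2, 4.62, 2.56 and 5.85 in high fat vehicle livers, and 0.624, 0.331 and 0.830 on normal diet. B-LGND2 replicate 3 stood near the normal diet libraries and the other 2 B-LGND2 libraries stood above every vehicle library. Its log2 fold change was 2.81 (SE 0.69) for high fat vehicle over normal diet and 0.36 (SE 0.54) for B-LGND2 over high fat vehicle. The second was 0.83 without B-LGND2 replicate 3, and ran from -0.11 to 0.83 over the 9 fits with 1 library left out.

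Markers of the tissues in which GLUT4 is abundant were low in these livers. The 8 adipocyte markers summed to 8.16 to 12.4 CPM with B-LGND2, 8.57 to 17.3 CPM in high fat vehicle livers and 6.86 to 20.9 CPM on normal diet. Adipoq, which encodes adiponectin and defines fat cells, had 0, 1 and 3 counts with B-LGND2, 3, 1 and 0 in high fat vehicle livers and 0, 0 and 16 on normal diet. Cidec, a lipid droplet gene of the same list, had 81, 28 and 24 counts with B-LGND2, 60, 32 and 33 in high fat vehicle livers, and 26, 29 and 44 on normal diet. The part of fat cells in the Slc2a4 values was not tested. Of 10 muscle markers 6, Ckm and Myh4 among them, had 0 counts in all libraries. The list summed to at most 0.294 CPM with B-LGND2, 0.602 CPM in high fat vehicle livers and 1.09 CPM on normal diet.

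Of 10 other facilitative glucose transporters 5 were tested and edgeR and limma-voom called none in any comparison (1, 2 and 0 under an unadjusted p of 0.05 for high fat vehicle over normal diet, B-LGND2 over high fat vehicle and B-LGND2 over normal diet; 0, 2 and 0 by DESeq2). Among 15 tested insulin signalling genes, Foxo3, a forkhead transcription factor held out of the nucleus by insulin, was called in both comparisons with high fat vehicle livers, which share the high fat vehicle libraries. It stood at 48.7 ± 2.56 CPM with B-LGND2, 115 ± 13 CPM in high fat vehicle livers and 53.6 ± 15.9 CPM on normal diet (n = 3 each). Its log2 fold change was 1.10 (SE 0.24, edgeR adjusted p = 0.0253) for high fat vehicle over normal diet, higher in 3 of 3 libraries, and -1.24 (SE 0.24, edgeR adjusted p = 0.0103) for B-LGND2 over high fat vehicle, lower in 3 of 3. Foxo1, a close relative, rose in high fat vehicle livers, to 89.3 ± 8.01 CPM against 49.1 ± 6.76 CPM on normal diet (n = 3 each; 0.86, SE 0.21, edgeR adjusted p = 0.0366), and did not pass for B-LGND2 over high fat vehicle (-0.41, SE 0.20, edgeR adjusted p = 0.231). The diet calls of both were lost without any single high fat vehicle library or normal diet replicate 3, and that of Foxo1 also without normal diet replicate 2 (adjusted p up to 0.116 for Foxo3 and 0.150 for Foxo1). With offsets for transcript length and GC content, or with only the 2 groups compared, both diet calls were lost too, and that of Foxo1 also with a replicate block. For Foxo3 the ligand call was lost when B-LGND2 replicate 1 was left out (adjusted p = 0.0546). Of the 15 genes 13.3% were called for high fat vehicle over normal diet and 6.67% for B-LGND2 over high fat vehicle, against 2.99% and 5.63% of all genes tested. Under an unadjusted edgeR p of 0.05 were 7 of the 15 for diet, 2 for ligand and 4 for B-LGND2 over normal diet.

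Trp53inp1 encodes a stress-induced nuclear protein that acts with p53 and in autophagy (4:11156431-11174379, plus strand). It had 67, 64 and 88 counts with B-LGND2, 769, 322 and 342 in high fat vehicle livers, and 179, 153 and 117 on normal diet. Its level was 7.76, 9.42 and 14.7 CPM with B-LGND2, 127, 48.4 and 47.7 CPM in high fat vehicle livers, and 27.9, 25.3 and 16.2 CPM on normal diet. The 3 groups did not overlap, and high fat vehicle replicate 1 stood far above the rest of its group. Fitted over all libraries, the log2 fold change was 1.68 (SE 0.37) for high fat vehicle over normal diet and -2.81 (SE 0.39) for B-LGND2 over high fat vehicle. Without high fat vehicle replicate 1 these were 1.06 and -2.19.

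Cdkn1a encodes p21, the cyclin-dependent kinase inhibitor through which p53 arrests the cell cycle (17:29090976-29100727, plus strand). It had 103, 113 and 26 counts with B-LGND2, 47, 59 and 24 in high fat vehicle livers, and 7, 11 and 18 on normal diet. On the CPM scale these were 11.9, 16.6 and 4.33 with B-LGND2, 7.75, 8.87 and 3.35 in high fat vehicle livers, and 1.09, 1.82 and 2.49 on normal diet. Every high fat library lay above every normal diet library, and the B-LGND2 and high fat vehicle libraries overlapped. The log2 fold change was 1.86 (SE 0.51) for high fat vehicle over normal diet and 0.73 (SE 0.45) for B-LGND2 over high fat vehicle. Cdkn1a and Trp53inp1 are both known p53 target genes. For B-LGND2 over high fat vehicle the fitted value of Trp53inp1 was -2.81. That of Cdkn1a was 0.73, and its SE of 0.45 and overlapping libraries do not place it above or below 0. Over the 9 libraries the log2 CPM values of the 2 genes correlated at a Pearson r of -0.18.

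Mdm1 encodes a microtubule-binding protein of the centriole that restrains centriole duplication (10:118141811-118168997, plus strand). It had 0, 8 and 3 counts with B-LGND2, 50, 18 and 24 in high fat vehicle livers, and 3, 4 and 3 on normal diet. This was 0.559 ± 0.591 CPM with B-LGND2, 4.77 ± 3.03 CPM in high fat vehicle livers and 0.515 ± 0.130 CPM on normal diet. The high fat vehicle libraries lay above all others, and the B-LGND2 and normal diet libraries overlapped. Its log2 fold change was 3.17 (SE 0.74) for high fat vehicle over normal diet and -3.12 (SE 0.73) for B-LGND2 over high fat vehicle. Without B-LGND2 replicate 2 the second was -4.34, and over the 9 fits with 1 library left out it ran from -4.34 to -2.42.

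The promoters of Rgs16, Mdm1 and Cdkn1a are shown because the first 2 genes had the most alike pattern of any pair of the 10. Cdkn1a had a fitted value of the other sign for B-LGND2 over high fat vehicle, though with overlapping libraries. They are RefSeq windows of 300 bases on GRCm38.p6, 250 before and 50 after the annotated start, written 5′ to 3′ on the gene's strand. Of the 10 genes 8 had a window, and Cdkn1a had 2, of which the upstream one is shown. Capitals mark matches, on either strand, to a GC box (GGGCGG), to the CCAAT box or to the p53 half-site.
Rgs16 (chr1:153740103-153740402): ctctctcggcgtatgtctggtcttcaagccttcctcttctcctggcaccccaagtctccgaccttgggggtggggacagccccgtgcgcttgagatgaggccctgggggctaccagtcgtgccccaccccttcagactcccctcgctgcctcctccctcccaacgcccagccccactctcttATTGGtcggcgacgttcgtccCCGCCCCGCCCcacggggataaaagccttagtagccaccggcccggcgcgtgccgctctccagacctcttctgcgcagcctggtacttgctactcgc
Mdm1 (chr10:118141537-118141836): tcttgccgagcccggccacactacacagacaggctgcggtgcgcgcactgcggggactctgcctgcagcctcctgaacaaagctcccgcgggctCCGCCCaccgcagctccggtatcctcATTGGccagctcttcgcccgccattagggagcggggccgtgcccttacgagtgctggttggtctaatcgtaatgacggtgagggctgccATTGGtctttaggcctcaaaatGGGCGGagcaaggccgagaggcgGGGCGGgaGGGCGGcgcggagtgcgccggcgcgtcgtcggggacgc
Cdkn1a (chr17:29090729-29091028): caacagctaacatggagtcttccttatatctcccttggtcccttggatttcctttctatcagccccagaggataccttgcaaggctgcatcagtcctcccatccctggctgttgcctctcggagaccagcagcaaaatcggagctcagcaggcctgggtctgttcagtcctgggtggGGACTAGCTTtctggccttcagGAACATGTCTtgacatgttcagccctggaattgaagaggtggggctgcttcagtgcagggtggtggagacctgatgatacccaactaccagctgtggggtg

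The Rgs16 window held 2 overlapping GC boxes and a CCAAT box, and the Mdm1 window 4 GC boxes and 2 CCAAT boxes. Over all 32851 RefSeq windows of this length 35.7% held a GC box and 37.4% a CCAAT box. The upstream Cdkn1a window held 2 matches to the p53 half-site, at positions -73 and -51 from the start, and neither box. Its second window (chr17:29093519-29093818) held 2 GC boxes, at -104 and -46, and no p53 half-site; 8.36% of all windows held a p53 half-site. None of the windows of the 8 genes held a full cyclic AMP response element (TGACGTCA), an E-box (CACGTG), a forkhead motif (GTAAACA) or a TATA box (TATAAA), which 1.79%, 7.15%, 3.65% and 13.6% of all windows held. A match is a description of the letters in these windows.

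Of 25 tested genes of the p53 pathway edgeR called only Btg2, an anti-proliferative gene that is also an immediate early gene, in high fat vehicle over normal diet and in B-LGND2 over high fat vehicle. It stood at 10.2 ± 1.12 CPM with B-LGND2, 20.9 ± 5.25 CPM in high fat vehicle livers and 8.97 ± 1.59 CPM on normal diet (n = 3 each; edgeR adjusted p = 0.0289 for diet and 0.0341 for ligand). The list's share called was 4% in each, against 2.99% and 5.63% of all genes tested, and its medians were 0.023 and -0.0051. Both Btg2 calls were lost without any single high fat vehicle library or normal diet replicate 2, and the ligand call also without any single B-LGND2 library (adjusted p up to 0.140 and 0.169). With only the 2 groups compared the diet call was lost, and with a replicate block both were. For B-LGND2 over normal diet edgeR, DESeq2 and limma-voom called none of the 25, with 3 under an unadjusted p of 0.05. For diet and ligand 5 and 3 of the 25 were under an unadjusted edgeR p of 0.05.

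Among 15 tested cell cycle genes Ccne1, encoding the cyclin E that p21 restrains, fell in high fat vehicle livers, to 1.66 ± 0.521 CPM against 6.81 ± 2.30 CPM on normal diet (n = 3 each; edgeR adjusted p = 0.0406; log2 fold change -2.03, SE 0.51; lower in all 3 libraries). Ccnd1, encoding cyclin D1, was called higher with B-LGND2, at 28.0 ± 14.8 CPM against 11.7 ± 1.62 CPM in high fat vehicle livers, though the libraries overlapped (n = 3 each; edgeR adjusted p = 0.0489; log2 fold change 1.26, SE 0.36). Each was the only gene of the 15 called in its comparison, 6.67%, against 2.99% of all genes tested for diet and 5.63% for ligand. Under an unadjusted edgeR p of 0.05 were 4 of the 15 for diet, 1 for ligand and 2 for B-LGND2 over normal diet. Without scaling beyond library size, in limma-voom, with a replicate block and with the rRNA share as covariate neither was called. The Ccnd1 call was lost too without the robust option and with at least 50 counts in 3 libraries. The Ccne1 call was also lost in 6 of 9 leave-one-out fits, those without B-LGND2 replicate 1, any single high fat vehicle library or normal diet replicate 2 or 3 (adjusted p up to 0.173), and the Ccnd1 call in 6, those without B-LGND2 replicate 1 or 3, any single high fat vehicle library or normal diet replicate 2 (adjusted p up to 0.198). Of 13 tested genes of centriole duplication edgeR and limma-voom called none in any comparison (1, 1 and 2 under an unadjusted p of 0.05 for high fat vehicle over normal diet, B-LGND2 over high fat vehicle and B-LGND2 over normal diet; 1, 1 and 0 by DESeq2).

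Clic5 encodes a chloride intracellular channel family protein that associates with ezrin and actin under the plasma membrane (17:44188584-44280172, plus strand). It had 10, 6 and 1 counts with B-LGND2, 32, 26 and 38 in high fat vehicle livers, and 26, 11 and 13 on normal diet. This was 0.736 ± 0.512 CPM with B-LGND2, 4.83 ± 0.795 CPM in high fat vehicle livers and 2.56 ± 1.30 CPM on normal diet. The B-LGND2 libraries lay below all vehicle libraries, and normal diet replicate 1, at 4.05 CPM, reached into the high fat vehicle range. Fitted over all libraries, the log2 fold change was 0.91 (SE 0.48) for high fat vehicle over normal diet and -2.62 (SE 0.54) for B-LGND2 over high fat vehicle. Of 9 tested genes of the CLIC and ezrin-radixin-moesin list edgeR called only Ezr, encoding ezrin, for B-LGND2 over high fat vehicle, where it rose to 11.7 ± 1.65 CPM against 4.88 ± 2.31 CPM (n = 3 each; edgeR adjusted p = 0.0467; log2 fold change 1.25, SE 0.35; higher in all 3 libraries). Ezr alone made up 11.1% of the list, against 5.63% of all genes tested that were called in that comparison. Under an unadjusted edgeR p of 0.05 were 1 of the 9 for diet, 5 for ligand and 3 for B-LGND2 over normal diet. Ezrin thus stood higher and Clic5 lower with the ligand. The Ezr call was lost without scaling, with at least 50 counts in 3 libraries and with the rRNA share as covariate. It was also lost without any single high fat library or normal diet replicate 2 (edgeR adjusted p up to 0.206).

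Summed markers of macrophages, endothelial cells and T, B and NK cells were higher in every B-LGND2 library than in every vehicle library, and stand beside all B-LGND2 values above. Gene by gene, 11 of 12 macrophage markers, 3 of 9 endothelial markers and 0 of 10 T, B and NK cell markers separated in that way. The 12 macrophage markers summed to 1171 to 1503 CPM with B-LGND2, 329 to 443 CPM in high fat vehicle livers and 352 to 600.4 CPM on normal diet. The 9 endothelial markers summed to 203 to 232 CPM with B-LGND2, 117 to 171 CPM in high fat vehicle livers and 139 to 185 CPM on normal diet, and the 10 T, B and NK cell markers to 7.21 to 10.2 CPM with B-LGND2, 5.11 to 5.71 CPM in high fat vehicle livers and 4.80 to 5.93 CPM on normal diet. The 8 cholangiocyte markers summed to 101 to 140.1 CPM with B-LGND2, 33.5 to 40.8 CPM in high fat vehicle livers and 39.0 to 53 CPM on normal diet, but only Tff3 and Spp1 separated. The other 6, Krt19 and Epcam among them, overlapped in sum, at 10.8 to 20.4 CPM with B-LGND2, 7.07 to 13.9 CPM in high fat vehicle livers and 6.92 to 14.3 CPM on normal diet. Of 6 kidney markers 3 had 0 counts in all libraries. Stellate and fibroblast markers summed to 162 to 266 CPM with B-LGND2, 155 to 183 CPM in high fat vehicle livers and 150.2 to 194 CPM on normal diet. The part of these cell types in the members' values was not tested.

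**Figure D2:**
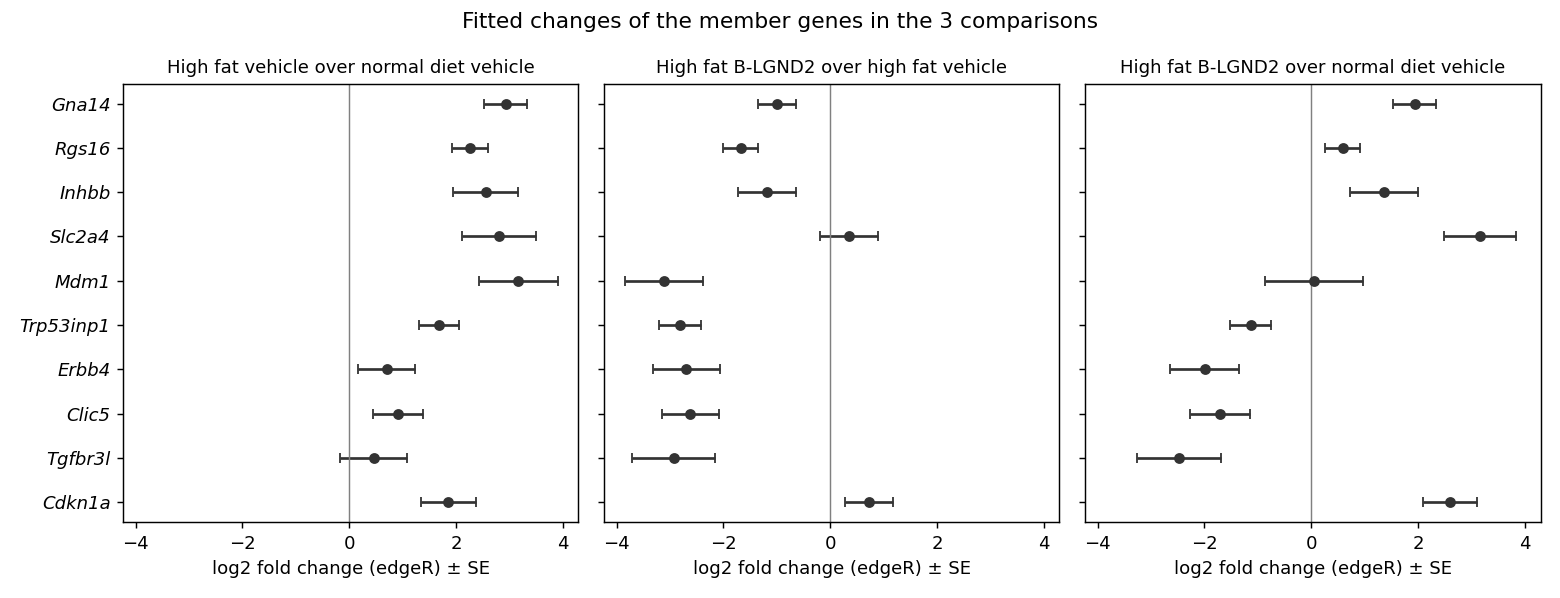
Fitted log2 fold change of each gene with its SE (edgeR, 9 libraries) in the 3 comparisons, which share libraries; the first 2 panels are the comparisons on which the genes were chosen. Slc2a4 and Cdkn1a lie right of 0 in all 3 panels, Mdm1 returns to 0.05 in the third, and Tgfbr3l lies farthest left there at -2.47.

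The comparison of B-LGND2 on the high fat diet with normal diet was not named in the choice of the genes, although the libraries of both groups entered it through the other comparisons, so its tests are no independent support. It asks where the treated livers stood relative to livers with neither the diet nor the ligand. Gna14, Slc2a4 and Cdkn1a were higher in B-LGND2 livers, in all 3 libraries and without overlap, and edgeR called none of the 10 lower. Of all genes tested 2.93% were called, 1.59% higher and 1.33% lower, and 10.5% were higher without overlap. Slc2a4 averaged 5.52 ± 4.05 against 0.595 ± 0.251 CPM (log2 fold change 3.16, SE 0.68; quasi-likelihood test of edgeR, adjusted p = 0.0210 over all 12102 genes; n = 3 each). Its counts were 58, 60 and 6 with B-LGND2 and 4, 2 and 6 on normal diet, so the difference rests on B-LGND2 replicates 1 and 2. Slc2a4 had values in 9 alternatives for this comparison, against 11 for Gna14 and Cdkn1a. The fit of only the 2 groups did not test it. Cdkn1a averaged 11 ± 6.21 against 1.80 ± 0.699 CPM (2.59, SE 0.51, edgeR adjusted p = 0.0132), and Gna14 12.8 ± 3.13 against 3.36 ± 2.01 CPM (1.94, SE 0.41, edgeR adjusted p = 0.0195).

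The other 7 genes did not pass edgeR's test in that comparison. Tgfbr3l (-2.47, SE 0.79, edgeR adjusted p = 0.103), Erbb4 (-1.99, SE 0.65, 0.106), Clic5 (-1.70, SE 0.56, 0.111) and Trp53inp1 (-1.13, SE 0.38, 0.121) stood below normal diet. DESeq2's Wald test called Erbb4 (adjusted p = 0.0314) and Tgfbr3l (0.0434) lower there, and edgeR without a filter on low counts called Erbb4 (0.0200), Tgfbr3l (0.0126) and Trp53inp1 (0.00297) lower. The libraries of Erbb4, Clic5 and Trp53inp1 were lower without overlap, where 10% of all genes tested were. Inhbb stood at 1.37 (SE 0.64, edgeR adjusted p = 0.248), Rgs16 at 0.59 (SE 0.33, 0.340) and Mdm1 at 0.05 (SE 0.92, 0.983), a difference whose SE is too wide to place Mdm1 above or below normal diet at this depth.

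Leaving out certain single libraries ended each of the 3 calls, with an adjusted p of at most 0.0942, while the log2 fold changes over all 9 such fits were 1.62 to 2.51 for Gna14, 2.68 to 3.64 for Slc2a4 and 2.17 to 2.96 for Cdkn1a. For Gna14 the call was lost when B-LGND2 replicate 3 (adjusted p = 0.0603) or normal diet replicate 3 (0.0565) was left out. For Slc2a4 it was lost when B-LGND2 replicate 1 (0.0927) or 2 (0.0715) or normal diet replicate 2 (0.0942) or 3 (0.0508) was left out, and in limma-voom (0.131). For Cdkn1a it was lost when B-LGND2 replicate 1 (0.0619) or 2 (0.0518) or normal diet replicate 2 (0.0597) was left out. With the rRNA share as a covariate none of the 3 passed, at log2 fold changes of 2.41 for Gna14, 0.16 for Slc2a4 and 0.22 for Cdkn1a (adjusted p = 0.303, 0.983 and 0.966).

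The members' patterns over the 9 libraries were compared in pairs, as a description because group differences, on which the genes were chosen, and library composition enter every value. Of the 45 pairs 13 had a Pearson r of log2 CPM above 0.7 and 8 were below 0. Rgs16 and Mdm1 were the most alike (r = 0.93), followed by Mdm1 and Trp53inp1 (0.87), Erbb4 and Tgfbr3l (0.85) and Slc2a4 and Cdkn1a (0.83). Tgfbr3l and Cdkn1a were the least alike (-0.64).

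**Figure D3:**
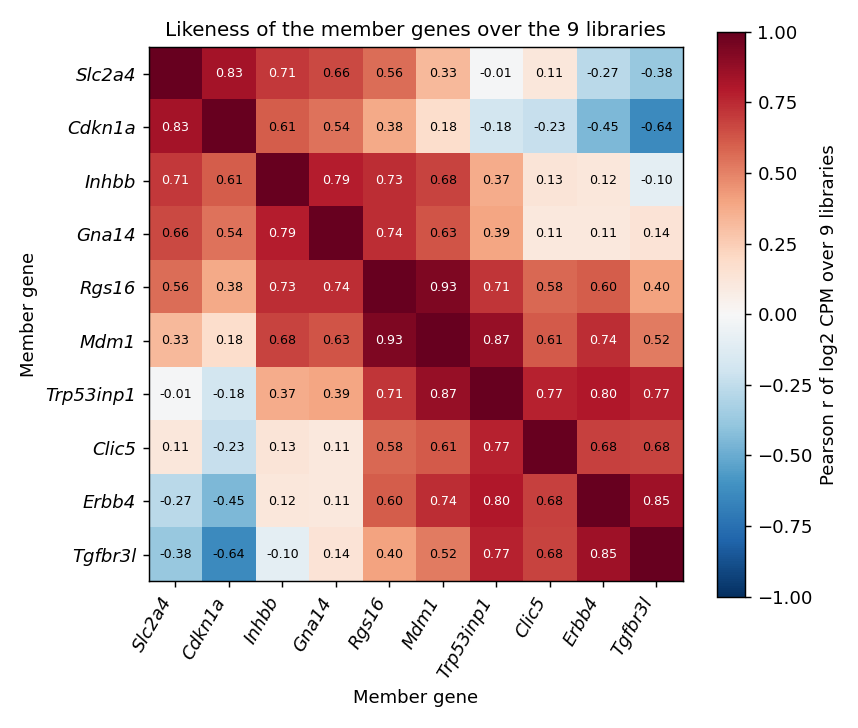
Pearson r of log2 CPM (prior count 2) between the 10 genes over the 9 libraries, red for positive and blue for negative. Values run from 0.93 for Rgs16 and Mdm1 to -0.64 for Tgfbr3l and Cdkn1a.

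Outside the set, the genes most like each member were sought among 10178 protein-coding genes by Pearson r over the same 9 libraries, with the best 2 named. Rgs16 was most like Cep85l (r = 0.96) and the clock repressor gene Per1 (0.96), and Slc2a4 most like Cntfr (0.97) and Fgf21, which encodes a hormone of the liver's response to fasting (0.93). Gna14 was most like Lgals8 (0.96) and Tgfbr3, encoding betaglycan (0.96), Inhbb most like Herpud1 (0.93) and Rapgef3, a cyclic AMP sensor gene (0.93), and Cdkn1a most like Jdp2 (0.97) and Cadps2 (0.96). For Mdm1 the genes were Ginm1 (0.97) and Aggf1 (0.96), and for Trp53inp1 Flcn (0.95) and the amino acid transporter gene Slc38a4 (0.95). For Erbb4 they were Rsrc2 (0.98) and Aldh6a1 (0.97), for Clic5 Il15ra (0.96) and Hnrnph3 (0.95), and for Tgfbr3l Ankra2 (0.98) and Nup133 (0.96). These are the largest of many correlations over 9 points, and members with few counts are compressed by the prior count of 2. A high r does not mean a change of like size. For diet and ligand Lgals8 stood at 0.35 and -0.06, where Gna14 stood at 2.93 and -0.99. Ginm1 stood at 0.45 and -0.47, where Mdm1 stood at 3.17 and -3.12. Cep85l, at 1.77 and -1.63, was nearer to Rgs16, at 2.26 and -1.67.

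**Figure D4:**
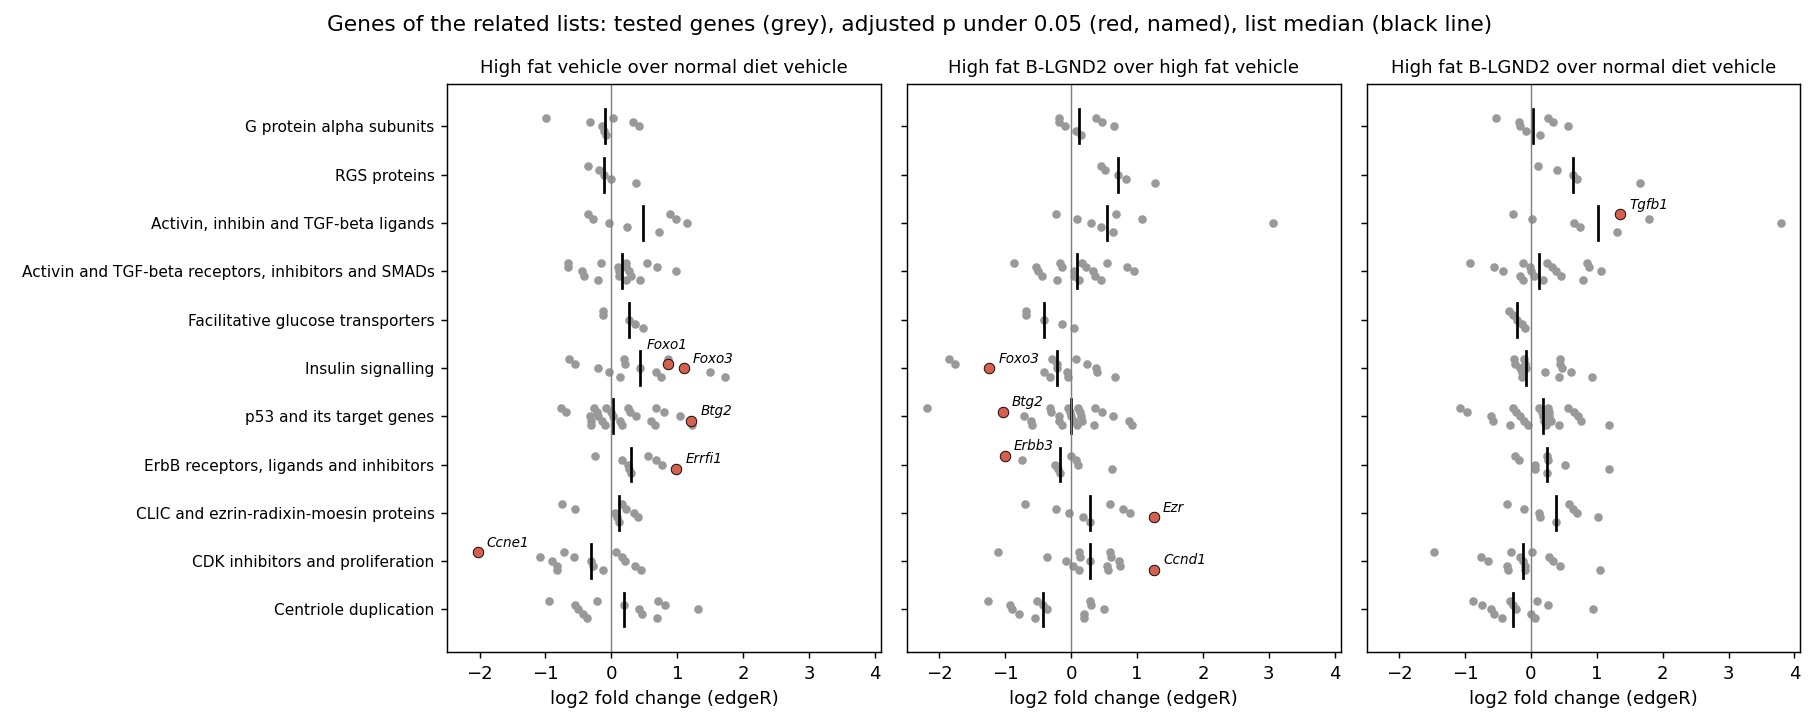
Log2 fold changes of the tested genes of the 11 related lists in the 3 comparisons; grey points did not pass edgeR's test, red named points did, and the black line is the list's median. Only Foxo1, Foxo3, Btg2, Errfi1, Ccne1, Erbb3, Ezr, Ccnd1 and Tgfb1 are named.

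Over the 11 related lists together 130 of 187 listed genes were tested. For high fat vehicle over normal diet edgeR called 4 higher and 1 lower, 3.85% against 2.99% of all genes tested (1.5% higher and 1.49% lower). For B-LGND2 over high fat vehicle it called 2 higher and 3 lower, 3.85% against 5.63% (3.07% higher and 2.56% lower), and for B-LGND2 over normal diet 1 higher and none lower, 0.769% against 2.93%. The medians of the 130 genes were 0.13, 0.07 and 0.08 on the log2 scale, and those of all genes 0.0054, -0.0031 and -0.0058.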

How the data were processed

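Poly(A)-enriched liver RNA of 9 mice was made into amplified, barcoded libraries and sequenced on an Ion Torrent Proton, per the labels' protocols. The authors deposited whole-number read counts per Ensembl gene, without normalization. The submitters' processing notes name HTSeq 0.6.1p1, TopHat2 2.0.13 with Bowtie2 2.2.4, SAMtools 0.1.19, DESeq2 1.6.3 and build GRCm38.p3. The sources used here state no annotation release or strand setting.

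Symbols, spans and exon lengths came from GENCODE M21 on GRCm38 by gene ID (44671 of 45513 matched), and coordinates are 1-based. In R 4.3.3, genes were filtered with filterByExpr of edgeR 4.0.16 (minimum count 10; 12102 left, at least 99.7% of counts per library) and scaled by TMM. A robust quasi-likelihood fit by group covered all 9 libraries, with 3 two-sided contrasts and Benjamini-Hochberg adjustment over all genes tested (threshold 0.05). SEs were derived from the F statistic. The labels give 3 samples per group and name no separate cages or batches, so the p-values reflect only the spread between these samples. No 2 libraries agreed within sampling noise (smallest chi-square per degree of freedom 11.8).

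The members, lists and tests were chosen with earlier results of these data known. Named outside the set are list genes called by edgeR (at most 4 per list and comparison), the 2 genes most like each member, and defining markers. Alternatives were DESeq2 1.42.0 (size factors and Wald test), limma-voom (limma 3.58.1), no filter on low counts, at least 50 counts in 3 libraries, library sizes unscaled, no robust option, the replicate block, only the 2 groups compared, transcript length and GC offsets, the rRNA share as covariate, and each library left out. Promoter windows came from RefSeq tables on GRCm38.p6.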

Additional observations from a re-analysis of the deposited data

How the results depend on the processing

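The number of genes called was 362 for high fat vehicle over normal diet, 681 for B-LGND2 over high fat vehicle and 354 for B-LGND2 over normal diet. In the same order it was 1182, 1345 and 751 without a filter, 984, 1123 and 660 by DESeq2's Wald test, 153, 1420 and 144 with only the 2 groups compared, and 1, 2 and 12 with the rRNA share as covariate. With transcript length and GC offsets it was 263, 911 and 329. With 1 library left out it ran from 35 (without high fat vehicle replicate 1) to 1860 (without normal diet replicate 1), from 100 (without high fat vehicle replicate 2) to 1439 (without normal diet replicate 3) and from 111 (without normal diet replicate 2) to 639 (without normal diet replicate 1). Without scaling the median of all genes stood at 0.17 for diet and -0.18 for ligand, and 72.6% and 31.1% of calls were higher, against 50.3% and 54.5% with scaling.

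The replicate block gave 203, 492 and 253 calls. Same-numbered libraries correlated in their deviations from the group means at -0.193 to 0.124. These values gave no sign of pairing by title number. They cannot show whether a cage, day or batch was shared, since library composition enters every deviation.

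No rRNA share of 1 group overlapped another group, so the covariate and the group cannot be told apart in that fit. In it Tgfbr3l turned to 3.39 for B-LGND2 over high fat vehicle and to 0.33 for B-LGND2 over normal diet. Against normal diet Rgs16 turned to -0.14 and Mdm1 to -1.19, and the values of Slc2a4 and Cdkn1a were 0.16 and 0.22. For B-LGND2 over high fat vehicle Slc2a4 moved to -5.43, Cdkn1a to -3.89 and Gna14 to 0.04, and for high fat vehicle over normal diet Tgfbr3l moved to -3.06 and Erbb4 to -0.19. In limma-voom Mdm1 turned to -0.87 for B-LGND2 over normal diet. With 1 library left out, Mdm1 ran there from -1.20 (without B-LGND2 replicate 2) to 0.72 and Rgs16 from -0.082 (without B-LGND2 replicate 2) to 0.91. The only other change of direction among the members in these alternatives was Slc2a4 for B-LGND2 over high fat vehicle, at -0.11 without B-LGND2 replicate 2. Apart from the covariate, whose values separate the groups, the cause was not tested. Counting error is widest for the 6 genes with fewer than 250 counts over 9 libraries.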
